A study of Mus musculus with 24 samples.

Results

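The 241 odorant receptor genes described here carry the numbers Olfr987 to Olfr1318 and lie on mouse chromosome 2. They were chosen by symbol, leaving out names that end in -ps, and are 241 of 1107 receptor genes named that way in the tables and of 57010 genes in all. The 332 numbers in the range also cover 75 genes with -ps names, which were left out. Male C57BL/6J wild-type mice, 8 weeks old, sat in odor-free chambers for 4 h and then for 90 min with odorant on filter paper or with empty paper, after which RNA of the olfactory epithelium was sequenced. One table of counts, AD, holds acetophenone (an aromatic ketone), decanal (an aldehyde with a straight carbon chain), the AD mixture of these odorants at 1:1, and a no-odor control. The second, OC, holds octanal (an aldehyde of the same kind with a shorter chain), cis-3-hexenol (an alcohol with a double bond), their 1:1 OC mixture, and a no-odor control of its own. Papers carried 10 µL of odorant, and the 24 libraries are 8 groups of 3 biological replicates. RNA came from homogenate supernatant after detergent and a hard spin, and poly(A) libraries kept the strand. Each odorant was set against the control of its own table. Libraries held between 19003759 and 24802496 counts. In bulk tissue fewer cells of a type and less RNA per cell cannot be told apart.

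Odorant receptors are G protein-coupled receptors of the cilia of olfactory sensory neurons. Each neuron transcribes 1 allele of 1 receptor gene out of the whole repertoire, so the level of a receptor in the tissue reflects how many neurons chose it as well as how much of its RNA each neuron holds. All receptors discussed here belong to class II, the tetrapod type, and signal through the olfactory G protein alpha subunit Gnal, adenylyl cyclase 3 (Adcy3) and a cyclic nucleotide-gated channel. The ligands of most of them are not known, and none is assigned here.

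The genes form 2 blocks rather than 1 cluster in the order of GENCODE M21, an annotation of the earlier mouse build GRCm38. The main block runs from Olfr987 to Olfr1272 and holds 204 of the receptors, and the distal block begins at Olfr1275 and holds 37. Between them lie 127 protein-coding genes, 0 of them receptors. A further 14 receptors with numbers outside the range, such as Olfr154 and Olfr52, sit inside the span and are not counted here. By annotation 239 of the 241 are protein coding and 2 carry pseudogene types, 153 read from the minus strand and 88 from the plus strand. RefSeq synonyms place 235 of them in 47 families of the MOR nomenclature, in which receptors of similar protein sequence share a number. The largest families are MOR245 with 22 members, MOR233 and MOR248 with 16 each, MOR264 with 15 and MOR231 with 14.

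Neighbours in these blocks are often near-copies, which limits how far their counts can be told apart. At least 95% of bases were identical over 90% or more of the coding sequence in 33 pairs, which take in 56 of the receptors. At 90% identity there were 70 pairs, of which 31 were next to each other in map order and 53 within 3 places. Olfr1049 and Olfr1051 were the closest pair, with 98.7% of 924 aligned bases identical, and Olfr1080 and Olfr1082 shared 98.1% of 939 bases. Reads within shared stretches could be given to either gene, so values of single genes in such pairs are uncertain. The starts of 3 neighbouring pairs show the range, as the first 60 coding bases in GENCODE M21, with capitals for bases that differ within a pair. The 1 coding difference within this stretch of Olfr1049 and Olfr1051 falls near its end, and Olfr1080 and Olfr1082 have 0 differences. Olfr1257 and Olfr1258, which come up repeatedly below, are neighbours but not among the 33 near-copy pairs, and differ at 19 bases.
Olfr1049: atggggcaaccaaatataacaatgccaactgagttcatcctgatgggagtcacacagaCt
Olfr1051: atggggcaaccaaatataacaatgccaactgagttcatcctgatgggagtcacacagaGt
Olfr1080: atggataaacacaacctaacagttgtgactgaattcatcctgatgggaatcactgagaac
Olfr1082: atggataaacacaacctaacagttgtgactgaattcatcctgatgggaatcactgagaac
Olfr1257: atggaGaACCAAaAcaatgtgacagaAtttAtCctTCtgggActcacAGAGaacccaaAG
Olfr1258: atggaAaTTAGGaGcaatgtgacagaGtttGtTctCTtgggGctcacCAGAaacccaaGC

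Upstream sequence could be shown for few of these genes. RefSeq windows on GRCm38.p6 existed for 199 of them, but 147 windows were set at the coding start, and for 18 genes the window lay within 100 bases of the GENCODE start and off the coding start. Receptor promoters are known for homeodomain sites, whose core is TAATTA or TAATGA and which Lhx2 and related factors bind, and for sites of the Ebf family, searched here as CCCNNGGG; the TATA box was searched as TATAAA. Both strands were searched over the 250 bases before the start, and overlapping matches of different motifs were each counted. TAATTA occurred in 7 of the 18 windows (38.9%), in 12 of 69 windows of other receptors chosen the same way (17.4%) and in 4.84% of 32851 windows of the whole table. TAATGA occurred in 38.9%, 37.7% and 8.59% in the same order, CCCNNGGG in 16.7%, 17.4% and 11.8%, and TATAAA in 38.9%, 18.8% and 12.4%. The windows are few, and TAATTA and TATAAA hold only A and T. Median GC content of the transcripts was 36.8% for the receptors described here and 39.8% for other receptors. The part of base composition in these shares was not tested. The windows of Olfr1110, Olfr1093 and Olfr1157 are printed, the first 2 because their genes were called in 3 or more comparisons and the third because it holds 3 of the motifs, with matches in capitals.
Olfr1110, chr2:87140234-87140483, minus strand: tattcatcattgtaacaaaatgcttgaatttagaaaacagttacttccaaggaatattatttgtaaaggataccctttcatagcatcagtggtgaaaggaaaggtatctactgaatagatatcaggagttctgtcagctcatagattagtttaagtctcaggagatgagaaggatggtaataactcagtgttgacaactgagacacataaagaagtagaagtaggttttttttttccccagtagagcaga
Olfr1093, chr2:86782295-86782544, plus strand: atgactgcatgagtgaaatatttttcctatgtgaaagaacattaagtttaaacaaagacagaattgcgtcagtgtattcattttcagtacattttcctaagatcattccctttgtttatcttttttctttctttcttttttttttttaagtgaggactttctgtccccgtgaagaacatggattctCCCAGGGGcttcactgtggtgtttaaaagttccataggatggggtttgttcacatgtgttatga
Olfr1157, chr2:87968258-87968507, minus strand: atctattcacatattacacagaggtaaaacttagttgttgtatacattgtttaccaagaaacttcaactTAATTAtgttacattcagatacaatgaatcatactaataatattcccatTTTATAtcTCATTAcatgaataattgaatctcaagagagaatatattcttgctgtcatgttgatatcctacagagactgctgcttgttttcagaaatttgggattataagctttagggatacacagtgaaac
The window of Olfr1110 holds 0 matches, that of Olfr1093 an Ebf-type match, and that of Olfr1157 both homeodomain cores and the TATA letters. A match is a string of letters and was not tested as a binding site.

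Levels differed widely between the receptors. Of the 241, 201 had counts in all 24 libraries and 174 averaged more than 1 CPM (counts scaled to a fixed library total), with a median of 2.27 CPM against 1.85 CPM for the 866 other receptors. Olfr1008, Olfr1061 and Olfr1128 had 0 counts in every library, which allows up to 0.121 to 0.158 CPM per library at a floor of 3 counts (counting error only). The 8 most abundant receptors held 24.9% of the group's CPM and the top 24 held 45.9%. Per kilobase of transcript, which is the scale for comparing genes, Olfr1257 (ENSMUSG00000049057) led at a mean of 15.2 CPM per kilobase and Olfr1228 (ENSMUSG00000099486) followed at 14.2. Olfr1264 at 8.90, Olfr1294 at 8.88, Olfr1261 at 8.71, Olfr1110 at 8.26, Olfr1260 at 7.58 and Olfr1112 at 5.55 came next. Neighbours in this order overlapped over the 24 libraries. Olfr1257 ran from 18.9 to 67.9 CPM over the 24 libraries and Olfr1228 from 22.0 to 57.8 CPM, whereas Olfr1264 kept between 28.1 and 48.9 CPM. At the low end of the receptors that could be tested stood Olfr1221 at 0.0883, Olfr1023 at 0.0978, Olfr1166 at 0.125 and Olfr1062 at 0.141 CPM per kilobase.

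Level also varied with place. In consecutive stretches of 24 genes, the share of the group's CPM was lowest, at 2.80%, in the stretch from Olfr1130 to Olfr1161, where the median receptor stood at 0.251 CPM per kilobase. The 3 stretches from Olfr1200 to Olfr1286 held 18.0%, 15.6% and 21.2%, with medians of 0.897, 1.03 and 1.03 CPM per kilobase. The distal block held 15.0% of the CPM, with a median of 0.926 CPM per kilobase, and the main block 85.0%, with a median of 0.746.

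**Figure D1:**
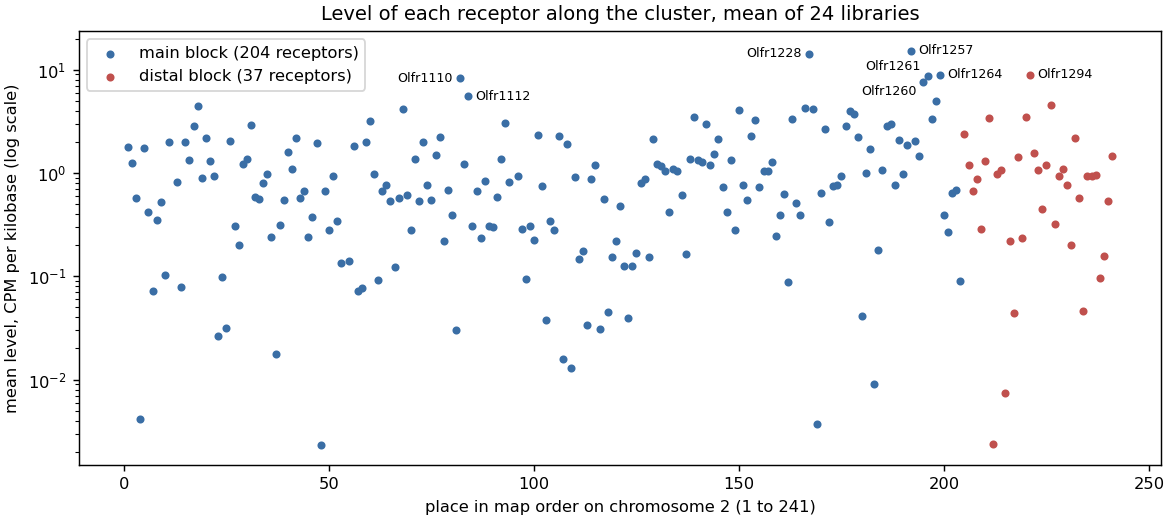
Mean level over 24 libraries, in CPM per kilobase on a log scale, of each receptor with a count, against its place in map order on chromosome 2; blue points are the main block and red points the distal block. The 8 highest are labelled, 5 of them between Olfr1228 and Olfr1264 near the end of the main block, and the stretch with the lowest median, at 0.251, begins at Olfr1130.

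As a group the receptors took a similar part of all receptor counts in every group. Their share of receptor counts averaged 22.0% ± 0.590 with acetophenone, 21.8% ± 0.0594 with decanal, 22.5% ± 0.591 with the AD mixture and 22.3% ± 1.02 in the AD control (SD, n = 3 each). Among the OC libraries it averaged 22.2% ± 0.286 with octanal, 21.6% ± 0.333 with cis-3-hexenol, 22.5% ± 0.723 with the OC mixture and 21.3% ± 0.740 in the OC control. Their share of all counts varied more, because the share of all receptors did. It was 0.110% ± 0.00409 with acetophenone, 0.102% ± 0.00797 with decanal and 0.104% ± 0.0139 with the AD mixture, against 0.115% ± 0.00718 in the AD control, and these groups overlapped. With octanal it was 0.111% ± 0.00245, with cis-3-hexenol 0.107% ± 0.00704 and with the OC mixture 0.120% ± 0.00759, against 0.0793% ± 0.0115 in the OC control. The 9 exposed OC libraries ran from 0.101% to 0.127% and the 3 OC controls from 0.0661% to 0.0876%, so they did not overlap. Against its own control the share of all counts was 0.960-fold with acetophenone, 0.888-fold with decanal, 0.904-fold with the AD mixture, 1.40-fold with octanal, 1.35-fold with cis-3-hexenol and 1.52-fold with the OC mixture. On receptor counts the same ratios were 0.988, 0.978, 1.01, 1.04, 1.01 and 1.05.

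**Figure D2:**
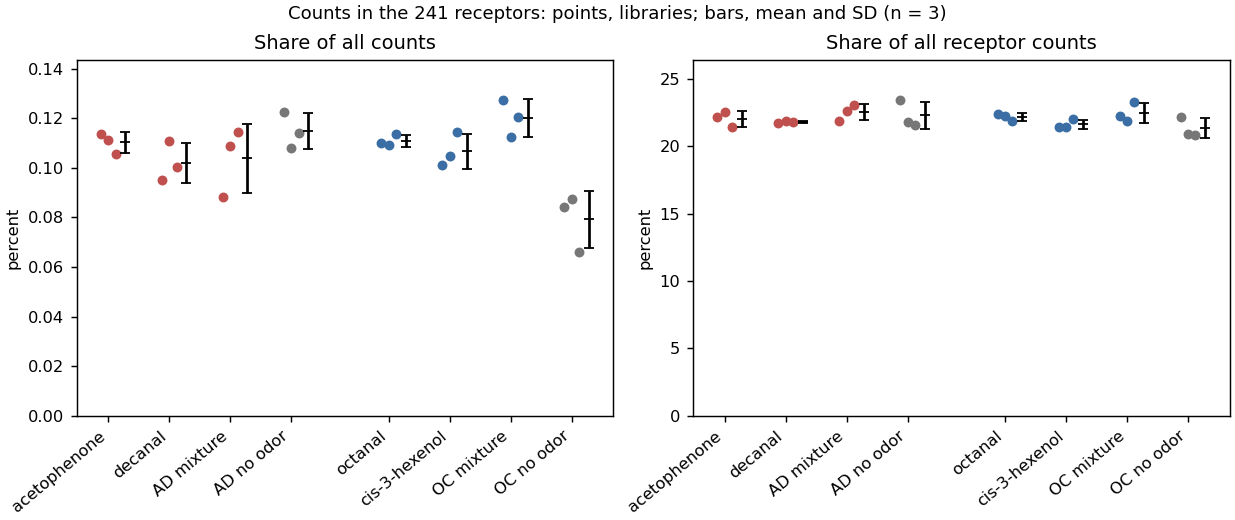
Percent of all counts (left) and of all receptor counts (right) held by the 241 receptors in each library; points are libraries, bars the mean and SD of 3. The OC no-odor libraries lie below every other library on the left, at 0.0661% to 0.0876%, while every group mean on the right lies between 21.3% and 22.5%.

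Each receptor was then tested for each odorant against its control with edgeR (quasi-likelihood F-test), fitted over all genes of a table and with p adjusted by Benjamini-Hochberg; 0.05 was the threshold for a call, here and below, and every adjusted p is from this test. Groups of 3 whose libraries did not overlap are counted beside the calls. The filter on low counts kept 203 of the 241 receptors in the AD table and 200 in the OC table, and no count below covers the rest. Log2 fold changes are scaled by the TMM method on all genes. Because receptors as a class took a different share of counts, they were also scaled on receptors alone. The receptors described here are in that scaling set, so their medians on that scale are drawn toward 0 by construction. That scaling left the median of all genes at 0.12 for acetophenone, 0.04 for decanal and 0.13 for the AD mixture (log2 scale). For octanal, cis-3-hexenol and the OC mixture it left -0.37, -0.44 and -0.54. Scaling on all genes left each of these between -0.02 and 0.01.

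Acetophenone, tested for changes in receptor RNA level, gave 0 called receptors of 203 in edgeR, against 0.00512% of all genes. DESeq2 also called 0. An unadjusted p under 0.05 was found for 21 in edgeR and for 17 in DESeq2. Groups did not overlap for 36 receptors, 7 of them higher, against 14.0% and 3.69% of all genes. The median log2 fold change was -0.11 over the 203 receptors and -0.12 over 725 other receptors, and 0.01 for the 203 with receptor scaling. By the smallest p the first was Olfr1263 (ENSMUSG00000059112), with 29.5, 35.6 and 30.0 CPM with acetophenone against 26.6, 21.8 and 24.4 CPM in the AD control. Its groups did not overlap, but the log2 fold change of 0.43 (SE 0.12) did not pass (adjusted p = 0.453). Olfr1200, of family MOR225, had 12.5, 15.1 and 12.6 CPM with acetophenone against 10.8, 8.99 and 9.62 CPM in the control, at 0.49 (SE 0.15, adjusted p = 0.525). The low receptor Olfr1132 had 0.448, 0.367 and 0.577 CPM with acetophenone against 1.05, 1.43 and 0.878 CPM in the control, at -1.22 (SE 0.38, adjusted p = 0.525).

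With decanal, 11 receptors fell and 1 rose of 203 (5.42% and 0.493%), against 12.5% of all genes that fell and 11.4% that rose (23.9% in either direction), and against 3.03% and 1.1% of the 725 other receptors. For 32 receptors the groups did not overlap, 12 of them higher, against 41.0% and 19.1% of all genes. Over the 203 the median log2 fold change was -0.01, or 0.01 with receptor scaling. Olfr1258 and its neighbour Olfr1257, both of family MOR232, were among those that fell. Olfr1258 (ENSMUSG00000049149) had 11.6, 12.9 and 12.3 CPM with decanal against 19.8, 20.5 and 22.4 CPM in the AD control, at a log2 difference of -0.75 (SE 0.15, adjusted p = 0.00224). Every decanal library lay below every control. Olfr1257 had 34.6, 32.0 and 30.3 CPM with decanal against 67.9, 52.3 and 43.5 CPM in the control, at -0.73 (SE 0.19, adjusted p = 0.0101), with the controls more widely spread than the exposed mice. Olfr1242 (ENSMUSG00000075085), of family MOR231, had 7.86, 8.76 and 7.52 CPM with decanal against 13.8, 14.1 and 13.3 CPM in the control, at -0.75 (SE 0.15, adjusted p = 0.00254). These 3 were also the only receptors of the group called with receptor scaling, with Olfr1258 at -0.72, Olfr1257 at -0.71 and Olfr1242 at -0.73 (0 of 203 higher and 3 lower, against 3.47% and 2.1% of all genes).

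The other named receptors that fell with decanal did so less firmly. Olfr1110 (ENSMUSG00000075159), of family MOR172, had 20.6, 23.1 and 20.5 CPM with decanal against 32.4, 26.4 and 38.0 CPM in the control, at -0.57 (SE 0.19, adjusted p = 0.0359). Olfr1280 stood at -0.65 (adjusted p = 0.0441) and Olfr1085 at -0.64 (adjusted p = 0.0480), and each of these 2 calls held in 1 of 6 fits that left out a library. The 1 receptor that rose, Olfr1151, was at 0.633, 0.629 and 0.892 CPM with decanal against 0.161, 0.304 and 0.335 CPM in the control, and is named because it was the only one; its log2 fold change was 1.44 (adjusted p = 0.0251). The count of 12 was 5 without AD control 1, 6 without AD control 3, 3 without decanal 1 and 6 without decanal 3. The calls of Olfr1242 and Olfr1258 held in all 6 such fits.

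The AD mixture gave 8 receptors that fell and 2 that rose of 203 (3.94% and 0.985%), against 11.6% and 10.6% of all genes (22.3% in either direction) and 4.69% and 0.276% of other receptors. In 18 receptors the groups did not overlap, 6 of them higher, against 36.5% and 17.1% of all genes. Their median log2 fold change was -0.06, or 0.04 with receptor scaling. Olfr1258 had 8.73, 12.2 and 14.3 CPM with the mixture against 19.8, 20.5 and 22.4 CPM in the control, at -0.81 (SE 0.15, adjusted p = 0.00143), a call that held without any single library. Olfr1110 had 13.8, 19.2 and 25.4 CPM with the mixture against 32.4, 26.4 and 38.0 CPM in the control, at -0.71 (SE 0.19, adjusted p = 0.0132). Both groups were widely spread, and the highest mixture library came close to the lowest control. Olfr1243 (ENSMUSG00000075084), next to Olfr1242 and of the same family, fell by 0.68 (adjusted p = 0.0388), Olfr1085 fell by 0.69 (adjusted p = 0.0375), Olfr1242 fell by 0.51 (adjusted p = 0.0263) and Olfr1015 (ENSMUSG00000033850) fell by 0.46 (adjusted p = 0.0151). The 2 that rose are near each other in map order, at places 130 and 134. Olfr1183 had 9.65, 11.4 and 10.2 CPM with the mixture against 6.77, 8.60 and 5.52 CPM in the control, at 0.60 (SE 0.17, adjusted p = 0.0216). Olfr1178 had 8.81, 8.59 and 9.29 CPM with the mixture against 7.66, 5.69 and 6.56 CPM in the control, at 0.44 (SE 0.13, adjusted p = 0.0209).

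With receptor scaling the mixture kept 4 calls, Olfr1183 and Olfr1178 higher and Olfr1258 and Olfr1110 lower, against 7.22% of all genes higher and 0.968% lower. The count of 10 was 3 without AD control 3 and 5 without AD mixture 1. The decanal and mixture comparisons share their 3 control libraries, so their lists are not independent of each other. Red cell transcripts (hemoglobins and Alas2) moved in the same libraries, with summed levels of 2147 to 2566 CPM with decanal and 1806 to 2549 CPM with the mixture against 493 to 654 CPM in the control, 5 of 5 genes higher in each and 0 at 0 counts. Neutrophil and marrow genes were higher for 6 of 7 in each comparison. Their summed levels were 283 to 427 CPM with decanal and 308 to 450 CPM with the mixture against 165 to 613 CPM in the control. Most of the control sum was Ltf, the gene not called, at 172.5, 130 and 581.8 CPM. The list median log2 fold change was 2.20 with decanal and 2.80 with the mixture. Bone genes were higher for 3 of 6 with decanal, at 1645 to 2270 CPM, and for 5 of 6 with the mixture, at 1866 to 3051 CPM, against 1186 to 1402 CPM in the control. The part of these cells in the receptor results was not tested.

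**Figure D3:**
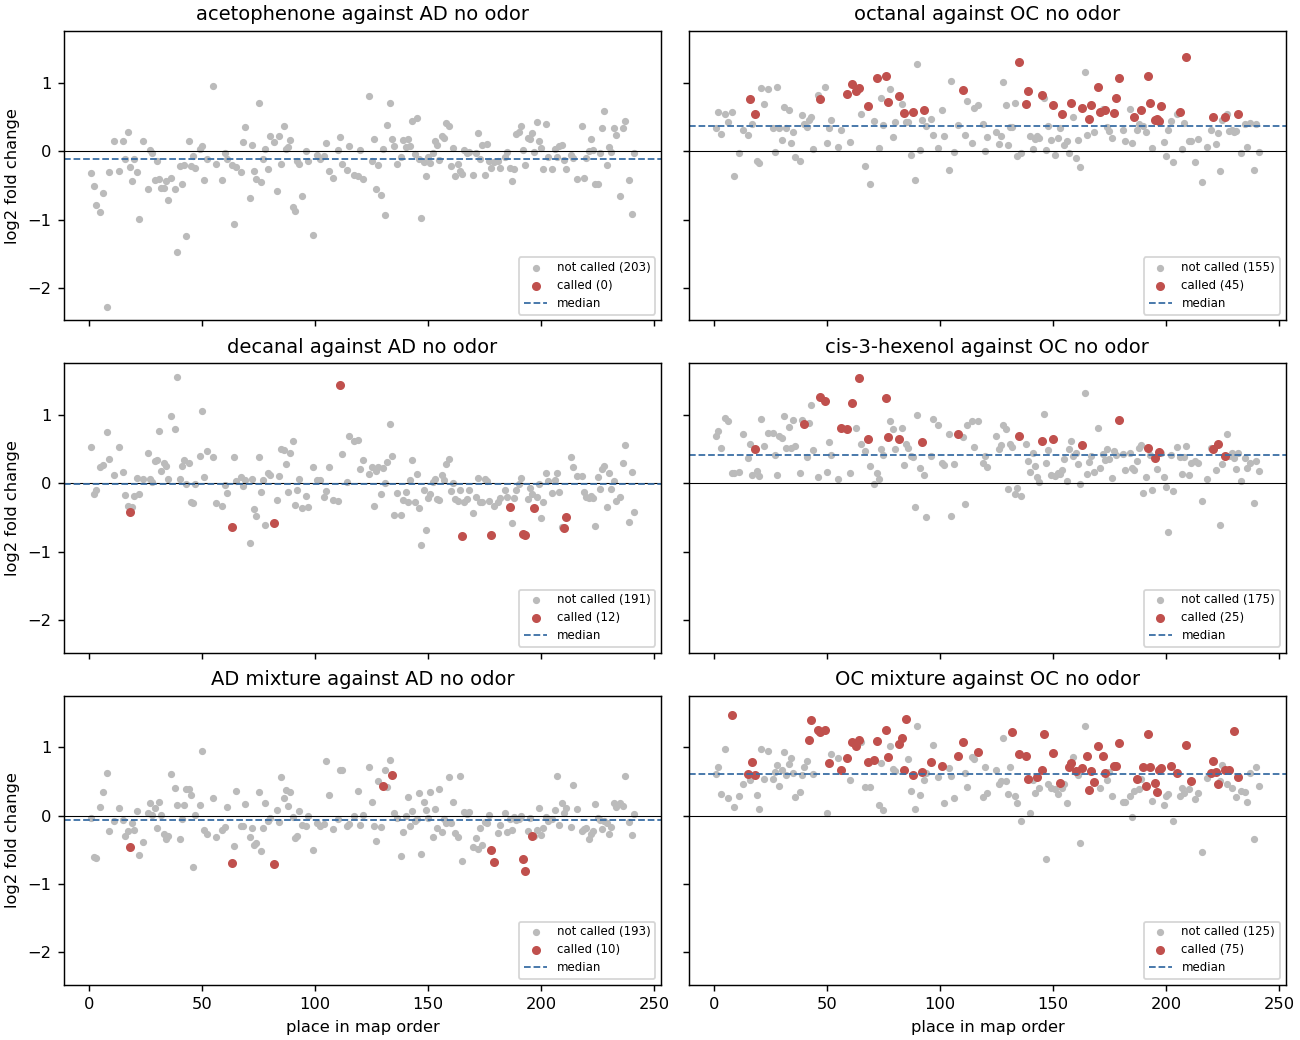
Log2 fold change of each tested receptor against its place in map order, for 6 odorant groups against the no-odor control of their table; red points are called at an adjusted p under 0.05 and the dashed line is the median. In the AD panels on the left the medians lie between -0.11 and -0.01, and in the OC panels on the right between 0.37 and 0.61. With receptor scaling, which uses these receptors too, the medians of all 6 lie between -0.01 and 0.07.

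Octanal, the other aldehyde, gave 45 receptors that rose and 0 that fell of 200 (22.5%), against 14.4% of all genes that rose and 15.0% that fell (29.4% in either direction), and 15.5% and 0.552% of 724 other receptors; with receptor scaling 7 rose and 1 fell, against 0.834% and 35.7% of all genes. Groups did not overlap for 65 receptors, 65 of them higher, against 38.3% and 21.6% of all genes. On the all-gene scale the median was 0.37 for these receptors and 0.33 for the other receptors, and for these it was 0.03 with receptor scaling and 0.21 with length and GC offsets. Olfr1257 had 54.5, 55.6 and 40.9 CPM with octanal against 22.6, 26.4 and 18.9 CPM in the OC control, at a log2 difference of 1.11 (SE 0.13, adjusted p = 0.000105). The lowest octanal library stood above the highest control. With receptor scaling it kept a rise of 0.79 (adjusted p = 0.000859). Olfr1184, of family MOR225, had 5.12, 5.23 and 3.47 CPM with octanal against 1.78, 1.93 and 1.71 CPM in the control, at 1.30 (SE 0.21, adjusted p = 0.000444), or 0.97 with receptor scaling (adjusted p = 0.00383). Olfr1243 had 9.06, 6.70 and 7.57 CPM with octanal against 3.90, 4.34 and 2.56 CPM in the control, at 1.07 (SE 0.20, adjusted p = 0.00138), or 0.74 with receptor scaling (adjusted p = 0.0113).

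Olfr1110 and Olfr1200 rose by less but with small errors. Olfr1110 had 27.1, 25.1 and 31.4 CPM with octanal against 16.6, 15.5 and 14.3 CPM in the control, at 0.81 (SE 0.10, adjusted p = 0.000120). Olfr1200 stood at 0.83 (SE 0.12, adjusted p = 0.000255), and Olfr1193 and Olfr1102 were the other 2 receptors called higher with receptor scaling, at 0.54 and 0.75. Olfr1018 was the 1 called lower on that scale, at -0.50, whereas on all genes it stood at -0.17 and did not pass (adjusted p = 0.503). Olfr1279, the largest rise among receptors averaging 20 counts or more at 1.38, had only 1.83, 1.21 and 1.46 CPM with octanal against 0.806, 0.434 and 0.427 CPM in the control. Some abundant receptors were not called. Olfr1264, the third by level per kilobase, had 40.2, 46.5 and 30.9 CPM with octanal against 42.5, 33.8 and 28.1 CPM in the control (adjusted p = 0.446). The count of 45 was 28 without octanal 3 and 24 after offsets for length and GC content, and 23 receptors were called in each of the 6 fits that left out a library.

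Cis-3-hexenol gave 25 receptors that rose and 0 that fell of 200 (12.5%), against 5.56% and 6.65% of all genes (12.2% in either direction) and 8.56% and 0 of the other receptors; with receptor scaling 3 rose and 6 fell, against 0.214% and 47.7% of all genes. In 68 receptors the groups did not overlap, 66 of them higher, against 29.1% and 17.5% of all genes. The median was 0.41, or -0.01 with receptor scaling and 0.23 with length and GC offsets. Over the other receptors it was 0.43 on the all-gene scale and 0.29 with those offsets. Olfr1086, a low receptor of family MOR179, had 1.53, 1.30 and 1.59 CPM with cis-3-hexenol against 0.509, 0.434 and 0.513 CPM in the OC control, at 1.54 (SE 0.31, adjusted p = 0.00736), or 1.11 with receptor scaling (adjusted p = 0.0190). Each exposed library lay well above each control. Olfr1052, of family MOR172 as Olfr1110 is, had 4.21, 3.45 and 5.60 CPM with cis-3-hexenol against 1.40, 2.03 and 1.92 CPM in the control, at 1.26 (SE 0.28, adjusted p = 0.0104), or 0.84 with receptor scaling (adjusted p = 0.0120). Olfr1102, of family MOR179, stood at 1.25 (adjusted p = 0.0158), or 0.81 with receptor scaling (adjusted p = 0.0227). Olfr1054 and Olfr1082 rose by 1.21 and 1.18 and were not called with receptor scaling (adjusted p = 0.0835 and 0.0708). Olfr1082 is the near-copy of Olfr1080, which stood at 0.15 and was not called. The 6 that fell only on the receptor scale were Olfr1269, Olfr1126, Olfr1259, Olfr1271, Olfr1178 and Olfr1183, at -1.16 to -0.51. The count of 25 was 15, 43 and 12 without OC control 1, 2 and 3, 12 without cis-3-hexenol 2 and 5 without cis-3-hexenol 3, and 5 after offsets for transcript length and GC content.

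The OC mixture had the most calls, with 75 receptors that rose and 0 that fell of 200 (37.5%), against 11.5% and 12.7% of all genes (24.2% in either direction) and 24.6% and 0 of the other receptors; with receptor scaling 6 rose and 5 fell, against 0.271% and 60.7% of all genes. For 92 receptors the groups did not overlap, all 92 higher, against 32.5% and 16.8% of all genes. The median was 0.61, or 0.07 with receptor scaling and 0.32 with length and GC offsets. Over the other receptors it was 0.53 on the all-gene scale and 0.32 with those offsets. Olfr1257 had 55.2, 43.0 and 60.1 CPM with the mixture against 22.6, 26.4 and 18.9 CPM in the OC control, at 1.20 (SE 0.13, adjusted p = 8e-05), or 0.68 with receptor scaling (adjusted p = 0.00128). Olfr1110 had 33.1, 29.2 and 35.4 CPM with the mixture against 16.6, 15.5 and 14.3 CPM in the control, at 1.05 (SE 0.10, adjusted p = 5.36e-05), or 0.52 with receptor scaling (adjusted p = 0.00561). For both receptors the groups lay far apart. Olfr1052, Olfr1102, Olfr1180 and Olfr1243 were the other 4 that kept a rise on the receptor scale, at 0.68, 0.69, 0.73 and 0.55. Olfr1052 had 5.05, 4.61 and 3.06 CPM with the mixture against 1.40, 2.03 and 1.92 CPM in the control. Olfr1047, Olfr1054 and Olfr1306 rose by 1.40, 1.25 and 1.23 on the all-gene scale and were not called on the receptor scale. The 5 that fell on the receptor scale alone were Olfr1202, Olfr1286, Olfr1271, Olfr1250 and Olfr1018. The count of 75 was 46 without OC mixture 1 and 14 after offsets for length and GC content, and 22 of the 75 exceeded a 2-fold change.

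The abundant receptors differed in how far they moved in the OC table. Olfr1228 had 49.9, 57.8 and 52.2 CPM with octanal, 39.4, 39.9 and 52.2 CPM with cis-3-hexenol and 53.9, 44.7 and 56.5 CPM with the OC mixture, against 42.8, 32.8 and 22.0 CPM in the OC control. It rose by 0.68 with octanal and by 0.66 with the mixture, and stood at 0.34 and 0.13 with receptor scaling, neither called. Olfr1294, the highest of the distal block per kilobase, had 21, 18.8 and 16.3 CPM with octanal, 17.0, 20.0 and 18.9 CPM with cis-3-hexenol and 22.9, 18.4 and 26.3 CPM with the mixture, against 13.6, 13.7 and 11 CPM in the control. All 9 exposed libraries exceeded its 3 controls, and its log2 fold changes were 0.51, 0.51 and 0.80, each called, or 0.17, 0.08 and 0.28 with receptor scaling. Olfr1260 rose by 0.46, 0.38 and 0.48 in the same 3 comparisons, but stood at 0.12, -0.06 and -0.05 with receptor scaling. By block, 40 of 169 tested receptors of the main block rose with octanal and 5 of 31 of the distal block. The share of all genes that rose with octanal was 14.4%. With the mixture the counts were 64 and 11, against 11.5% of all genes. Receptor scaling removed most of these calls, and a difference between the blocks was not tested.

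Near-copies did not always give like values. Olfr1080 had 6.13, 3.54 and 4.02 CPM with octanal against 4.11, 4.25 and 3.63 CPM in the OC control, at 0.14 and not called. Its near-copy Olfr1082 had 1.92, 1.12 and 1.55 CPM with octanal against 0.509, 1.01 and 0.727 CPM in the control and rose by 0.98. Counts of such a pair depend on how reads in shared stretches were divided, which was not tested.

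Transcripts known to follow neuronal activity were given beside the receptors. Lrrc3b, which rises in activated olfactory neurons, was called higher with decanal (0.33), the AD mixture (0.64), octanal (1.27), cis-3-hexenol (0.97) and the OC mixture (1.55), and stood at 0.41 with acetophenone without passing. Nr4a1, an immediate-early gene, rose with the AD mixture (0.92), octanal (1.99) and the OC mixture (1.61), and Fosb, a partner of Jun proteins, with the same 3 (1.32, 3.17 and 2.79). S100a5, a calcium-binding protein of active olfactory neurons, rose with decanal (0.39), the AD mixture (0.41) and the OC mixture (0.45), where it stood at -0.09 with receptor scaling. On that scale Lrrc3b with decanal and Fosb and Gap43 with the AD mixture no longer passed either. Gap43, a marker of immature neurons, rose by 0.24 with the AD mixture and fell by 0.26 with octanal.

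The 3 OC comparisons share the same control libraries, and the OC control differed from the exposed mice in other ways. Red cell genes summed to 760 to 1139 CPM with octanal, 1303 to 1961 CPM with cis-3-hexenol and 847 to 1786 CPM with the mixture, against 2153 to 4642 CPM in the OC control, with 5, 4 and 4 of 5 genes lower and 0 at 0 counts. Bone genes were lower for 5, 4 and 5 of 6, at 1021 to 1181 CPM, 1371 to 1699 CPM and 1048 to 1206 CPM against 1959 to 3245 CPM in the OC control. Neutrophil and marrow genes were lower for 6, 0 and 5 of 7. The part of these cells in the receptor results was not tested. The 8 markers of mature olfactory sensory neurons summed to 18304 to 20473 CPM in the 9 exposed OC libraries and to 19237 to 22108 CPM in the OC controls, which overlap. On the all-gene scale 3, 4 and 4 of these 8 were higher with octanal, cis-3-hexenol and the OC mixture, among them Cnga2, Adcy3 and Ano2, and 2, 1 and 1 were lower, with list medians of 0.20, 0.21 and 0.27; with receptor scaling the medians turned to -0.14, -0.21 and -0.25, with 1, 0 and 0 higher and 2, 3 and 4 lower. Omp, the olfactory marker protein and 1 of those lower, was lower with octanal, cis-3-hexenol and the mixture by all genes, at -0.45, -0.31 and -0.32 (adjusted p = 0.000104, 0.00417 and 0.000735). With receptor scaling 35.7%, 47.7% and 60.7% of all genes were called lower in the same order, beside the marker counts on that scale.

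Genes of the pathway that receptors feed into were counted next. Of 19 transduction genes, the cyclase Adcy3, the G protein subunit Gnal, the phosphodiesterase Pde1c and 6 more fell with decanal and Gng13, a G protein gamma subunit, rose. With the AD mixture 11 fell and 1 rose, and with acetophenone 0 were called in edgeR. Of all genes 12.5% fell and 11.4% rose with decanal, and 11.6% fell and 10.6% rose with the AD mixture. Receptor scaling left 5 lower and 1 higher with decanal, against 2.1% and 3.47% of all genes. With the AD mixture it left 6 lower and 1 higher, against 0.968% and 7.22% of all genes. With octanal, cis-3-hexenol and the OC mixture 9 of 18 rose and 3 fell in each. Of all genes 14.4%, 5.56% and 11.5% rose and 15.0%, 6.65% and 12.7% fell in the same order. The direction of the transduction genes turned with receptor scaling. It left 1 higher and 6 lower with octanal, and 0 and 9 with each of cis-3-hexenol and the mixture. On that scale 35.7%, 47.7% and 60.7% of all genes were called lower in the same order, so the turn was not particular to these genes. Adcy3 stood at -0.40 with decanal, -0.51 with the AD mixture, 0.57 with octanal, 0.38 with cis-3-hexenol and 0.40 with the OC mixture on the all-gene scale, each called, but at 0.25, -0.04 and -0.11 in the 3 OC comparisons with receptor scaling, none called. Of 20 genes of receptor choice and trafficking, 5 rose and 7 fell with decanal, 3 and 6 with the AD mixture, 3 and 6 with octanal, 1 and 6 with cis-3-hexenol and 5 and 7 with the OC mixture; receptor scaling left 1 and 3, 2 and 1, 0 and 12, 0 and 14, and 0 and 16 in that order. Among them Lhx2 and Ldb1, which bring receptor enhancers together, were called in none of the 6 comparisons on the all-gene scale. Both were lower on the receptor scale in the 3 OC comparisons. The shares of all genes called on both scales, given above, stand beside this list too. Atf5, the factor that a receptor's own translation induces, rose by 0.53 with decanal and by 0.46 with the AD mixture and fell by 1.14, 0.74 and 0.93 with octanal, cis-3-hexenol and the OC mixture, called on both scales in each. The demethylase Kdm1a, which opens and then must leave receptor genes, fell by 0.29 with decanal and by 0.28 with the AD mixture and rose by 0.37 with octanal and by 0.24 with the OC mixture on the all-gene scale, but was called in none of these on the receptor scale, where the OC mixture turned to -0.30.

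Some receptors were lower in the AD table and higher in the OC table on the all-gene scale, at a share below that of all genes. Of 200 tested in both, 12 (6%) were called lower in 1 or more AD comparison and higher in 1 or more OC comparison, and 0 the other way. Of 716 other receptors 27 (3.77%) were called in this pattern and 0 the other way, and of all 19015 genes 8.57% and 6.58%. The 12 were Olfr1015, Olfr1085, Olfr1110, Olfr1225, Olfr1242, Olfr1243, Olfr1251, Olfr1257, Olfr1258, Olfr1261, Olfr1262 and Olfr1281, with Olfr1257, Olfr1258, Olfr1261 and Olfr1262 at places 192, 193, 196 and 197. In the no-odor mice Olfr1257 had 67.9, 52.3 and 43.5 CPM in the AD control and 22.6, 26.4 and 18.9 CPM in the OC control. Its decanal libraries, at 34.6, 32.0 and 30.3 CPM, lay beside its cis-3-hexenol libraries, at 32.0, 32.5 and 35.1 CPM. Olfr1242 had 13.8, 14.1 and 13.3 CPM in the AD control and 6.40, 7.14 and 4.15 CPM in the OC control. Side by side as acetophenone, decanal, AD mixture, octanal, cis-3-hexenol and OC mixture over their controls, Olfr1110 stood at 0.14, -0.57, -0.71, 0.81, 0.65 and 1.05. In that order Olfr1243 stood at -0.15, -0.33, -0.68, 1.07, 0.93 and 1.06, and Olfr1015 at -0.24, -0.42, -0.46, 0.54, 0.51 and 0.60. Olfr1258 stood at -0.21, -0.75, -0.81, 0.71, 0.42 and 0.72. For these 4 the acetophenone value was the smallest in size and did not pass. With receptor scaling Olfr1015 was called in none of the 6, and Olfr1258 was called with decanal and the AD mixture alone. The controls differ in table as well as in mice, so these levels are set side by side and not tested.

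**Figure D4:**
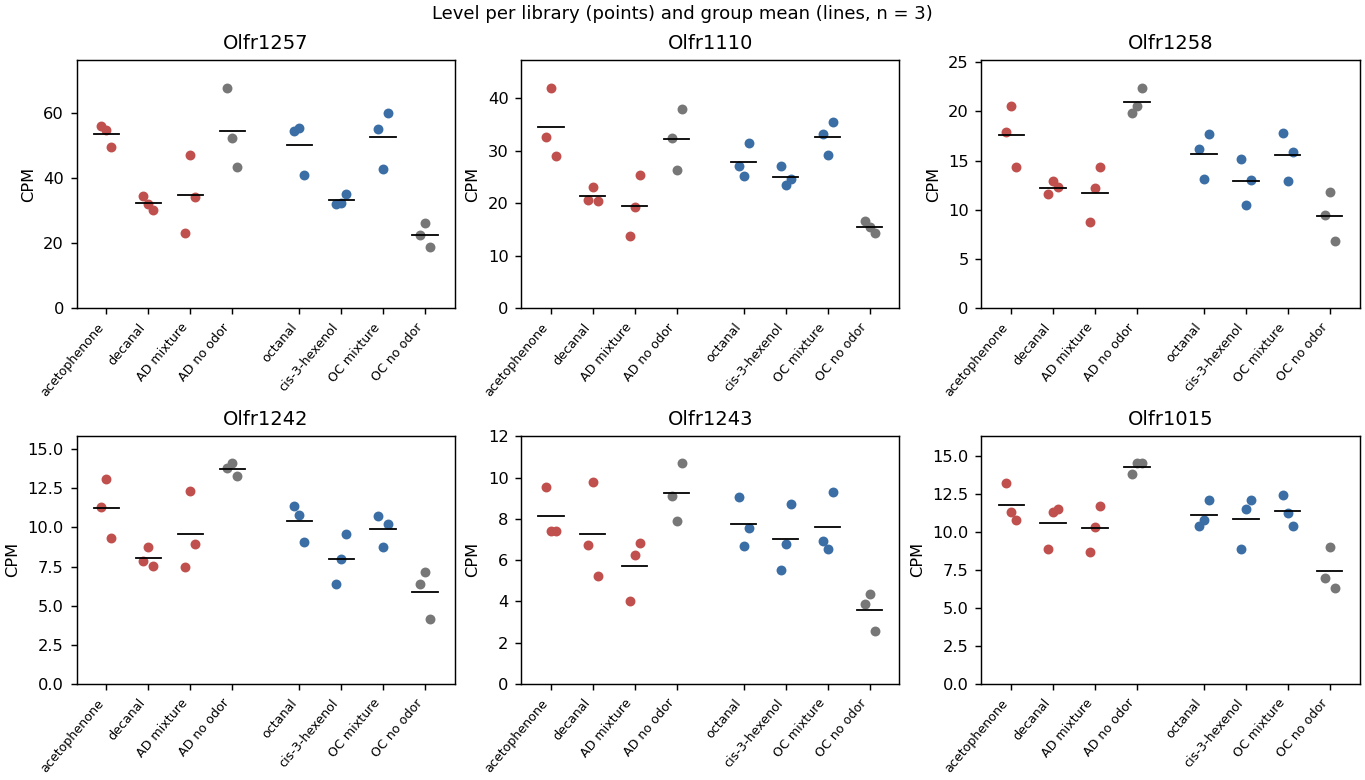
CPM per library of 6 receptors in all 8 groups, exposed groups to the left of the no-odor control of their table (red AD, blue OC, gray controls); points are libraries and lines the mean of 3. In each panel the AD control mean lies above the decanal and AD mixture means, and the OC control mean lies below all 3 OC exposed means.

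Decanal and acetophenone share a control, so they were also compared directly. Of 203 receptors 16 were higher with decanal (7.88%) and 8 lower (3.94%), against 12.6% and 14.4% of all genes (27.0% in either direction) and 10.6% and 6.62% of other receptors; with receptor scaling 12 were higher and 8 lower, against 3.09% and 9.32% of all genes. Groups did not overlap for 45, 30 of them higher, against 41.5% and 23.0% of all genes. On the all-gene scale the 2 directions of calls lay mostly in different stretches. All 16 higher receptors fell within places 1 to 117 of the 241, with a median level of 2.58 CPM, and the 8 lower ones were abundant, with a median level of 23.9 CPM, 7 of them between Olfr1226 and Olfr1263 and the other Olfr1110. With receptor scaling the 12 higher were all among these 16, but the 8 lower also took in Olfr1014 at place 17 (-0.69) and Olfr1280 at place 210 (-0.61). The median log2 fold change was 0.37 over 18 tested receptors from Olfr987 to Olfr1023 and 0.72 over 21 from Olfr1024 to Olfr1053, with 12 calls among them. It was -0.16 over 21 from Olfr1230 to Olfr1257 and -0.23 over 21 from Olfr1258 to Olfr1286. Against the control, these 4 stretches stood at 0.07, 0.26, -0.21 and -0.14 with decanal and at -0.30, -0.41, -0.11 and -0.01 with acetophenone. Several receptors from Olfr987 to Olfr1053 were lowest in the same acetophenone library, so their calls and medians are not independent. Olfr994 had 2.16, 0.693 and 1.57 CPM with acetophenone, Olfr1026 2.4, 1.02 and 1.69 CPM, and Olfr1036 3.05, 1.06 and 2.02 CPM. Not all did so, as Olfr1014 had 8.14, 10.2 and 8.78 CPM.

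**Figure D5:**
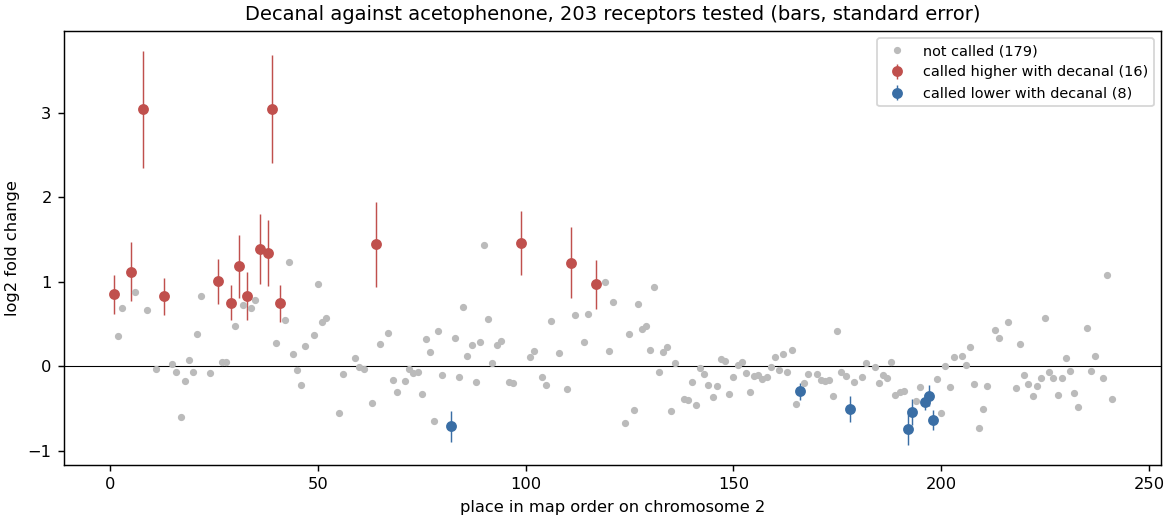
Log2 fold change of decanal over acetophenone for the 203 tested receptors against place in map order; bars on called receptors are standard errors. The 16 called higher lie at places 1 to 117 and 7 of the 8 called lower at places 166 to 198.

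Among the higher ones, Olfr1132 had 1.1, 1.76 and 1.06 CPM with decanal against 0.448, 0.367 and 0.577 CPM with acetophenone, at a log2 difference of 1.46 (SE 0.38, adjusted p = 0.00986). Olfr1042, of family MOR185, had 1.86, 1.30 and 2.21 CPM with decanal against 0.896, 0.693 and 0.495 CPM with acetophenone, at 1.34 (SE 0.39, adjusted p = 0.0194). Olfr1032, of family MOR199, had 5.03, 5.12 and 5.10 CPM with decanal against 3.01, 1.43 and 2.19 CPM with acetophenone, at 1.18 (SE 0.38, adjusted p = 0.0301). In these 3 no library of a group reached the other group. Of the 7 tested members of MOR185, 4 were higher with decanal, against 12.6% of all genes. This family was picked after its values were seen, and MOR175 and MOR196 each had 2 of 3 higher. Against the AD control 0 of the 7 were called with either odorant, at medians of 0.47 with decanal and -0.40 with acetophenone. Among the lower ones, Olfr1257 had 34.6, 32.0 and 30.3 CPM with decanal against 56.0, 54.8 and 49.7 CPM with acetophenone, at -0.75 (SE 0.19, adjusted p = 0.00796). Olfr1110 had 20.6, 23.1 and 20.5 CPM with decanal against 32.7, 42.0 and 29.0 CPM with acetophenone, at -0.71 (SE 0.19, adjusted p = 0.0100). Olfr1263 had 21.3, 22.8 and 18.3 CPM with decanal against 29.5, 35.6 and 30.0 CPM with acetophenone, at -0.63 (SE 0.12, adjusted p = 0.00111). Olfr1043 and Olfr998 showed larger changes, at 3.04 each, on under 20 counts a library on average, and are named after their values were seen; Olfr1043 had 1.14, 1.64 and 0.425 CPM with decanal against 0.163, 0.0816 and 0.124 CPM with acetophenone. The count of 24 was 10 without acetophenone 2, 12 without acetophenone 3, 15 without decanal 2 and 12 without decanal 3, and 5 receptors (Olfr1257, Olfr1261, Olfr1263, Olfr998 and Olfr1043) were called in every such fit. Red cell genes were higher with decanal for 5 of 5, at 2147 to 2566 CPM against 222 to 627 CPM with acetophenone, as were 6 of 7 neutrophil and marrow genes and 4 of 6 bone genes, and their part was not tested.

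Cis-3-hexenol and octanal, the other 2 single odorants that share a control, gave 0 called receptors of 200 in edgeR, with 20 below 0.05 before adjustment, 1 called in DESeq2, and 0.0% of all genes called. Groups did not overlap for 32, 17 of them higher, against 24.7% and 12.1% of all genes. Olfr1257 came closest, with 32.0, 32.5 and 35.1 CPM with cis-3-hexenol against 54.5, 55.6 and 40.9 CPM with octanal, at a log2 difference of -0.59 (SE 0.13, adjusted p = 0.102). Its groups did not overlap, and a difference of this size that misses the threshold does not show that the odorants act alike.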

How the data were processed

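The authors deposited 2 tables of expected counts per Ensembl gene, 12 libraries each and unscaled; per the submitters' processing notes STAR 2.7.10b, Salmon 1.10.1 and R 4.4.2 were used with build GRCm39, and the annotation release is not given in the sources used here. Expected counts were rounded (12.8% of AD and 12.6% of OC values were not whole). GENCODE M21 (GRCm38) gave symbols for 52081 of 57010 IDs, map order, transcript lengths and GC content; RefSeq on GRCm38.p6 gave promoter windows and family names, and blastn 2.17.0 gave coding identity, in place of protein identity, for which no protein sequences were used here.

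Columns named only as controls were taken as the control of their own table. Each table was fitted once over its 12 libraries by group with edgeR 4.0.16 (R 4.3.3; filterByExpr, TMM, two-sided quasi-likelihood F-test, Benjamini-Hochberg over 19525 AD or 19175 OC genes). The standard error is the log2 fold change over the square root of F. CPM use the table's own totals. Alternatives were DESeq2 1.42.0 size factors and its Wald test, TMM from receptors alone, no low-count filter or 1 CPM in 3 libraries, length and GC offsets (loess span 0.5), a replicate block, and leaving out each library. Named receptors were drawn by a rule, and not all that met it are printed. In each comparison it took up to 6 of the largest rises and falls (3 between single odorants). These had to be called without overlap at a mean of 20 counts or more. Where fewer than 3 were called, it took the 3 with the smallest p. It also took those called in 3 or more comparisons or in both directions, the 8 highest and 4 lowest tested levels and the 4 closest pairs. Receptors named for a call on the receptor scale or in every leave-one-out fit, and Olfr1151, Olfr1157, Olfr998 and Olfr1043, were chosen after their values were seen. The edgeR step was tested on simulated data. Members and lists were chosen with earlier results of these data known. The p-values rest on the spread between replicates within groups, estimated jointly over all groups of a table and with information shared across genes. Counting floors and intervals cover counting error only.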

Additional observations from a re-analysis of the deposited data

Results flagged for a closer look

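One comparison was flagged, that of decanal against acetophenone, because the 2 single odorants of the same table differed when tested directly with edgeR. It called 24 of the 203 receptors, 7.88% higher and 3.94% lower with decanal, which is below the 12.6% and 14.4% of all genes. Of the other receptors 10.6% and 6.62% were called. Olfr1132 stood at 1.46, Olfr1042 at 1.34 and Olfr1032 at 1.18 on the log2 scale, higher with decanal, and Olfr1257 at -0.75, Olfr1110 at -0.71 and Olfr1263 at -0.63, lower with decanal. The calls of Olfr1257 and Olfr1263 held without any 1 library, those of Olfr1132 and Olfr1110 in 5 of 6 such fits, that of Olfr1042 in 2 and that of Olfr1032 in 1.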

How the results depend on the processing

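Counts of called receptors moved with the scaling, the offsets, the filter and single libraries. With TMM from receptors alone they were 3 for decanal, 4 for the AD mixture, 8 for octanal, 9 for cis-3-hexenol and 11 for the OC mixture. Length and GC offsets gave 24 for octanal, 5 for cis-3-hexenol and 14 for the OC mixture, and 22, 5 and 9 with the replicate block added. Without the low-count filter acetophenone had 5, cis-3-hexenol 53, decanal against acetophenone 38 and cis-3-hexenol against octanal 2. The DESeq2 Wald test gave 38 for cis-3-hexenol and 1 for cis-3-hexenol against octanal. On receptor counts the share ratios were 0.978 for decanal, 1.04 for octanal, 1.01 for cis-3-hexenol and 1.05 for the OC mixture. The cause of these shifts was not tested. Leaving out 1 library gave 0 to 1 calls for acetophenone, 3 to 10 for decanal, 3 to 13 for the AD mixture, 28 to 50 for octanal, 5 to 43 for cis-3-hexenol, 46 to 78 for the OC mixture, 10 to 28 for decanal against acetophenone and 0 for cis-3-hexenol against octanal; acetophenone had its 1 call without acetophenone 1. Same-numbered libraries did not deviate together (correlations -0.186 to 0.24 in AD and -0.18 to 0.116 in OC), so numbers were not taken as pairs; with the replicate block the calls were 0, 10, 9, 37, 19, 66, 26 and 0 in the order of the comparisons above. Of 571 alternative values of the receptors named for the largest changes or smallest p in a comparison, 453 kept direction and side of the threshold, 116 kept direction but no longer passed, 2 newly passed and 0 reversed. Receptors named for other reasons are not in that tally, and with receptor scaling Olfr1260 turned to -0.06 with cis-3-hexenol and to -0.05 with the OC mixture, against 0.38 and 0.48 on all genes, and Olfr1301 to -0.03 with cis-3-hexenol, against 0.39. Receptors at a few counts a library are limited by depth, and near-copies by how reads were assigned.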
